A study of Mus musculus with 6 samples.

Results

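The 55 genes described here encode factors that build ribosomes in the nucleolus, from RNA polymerase I and its regulators to the assembly factors of both ribosomal subunits. They were chosen by name from a fixed list of RNA polymerase I and ribosome biogenesis genes, often treated as a program driven by the transcription factor MYC. The rule uses no measured value, but the list was drawn up with earlier results of these data known. All 55 were found among the 24736 gene symbols of the table. The data are RNA sequencing libraries of intestinal crypts, the epithelial pockets that hold the stem and progenitor cells of the gut, from 3 wild-type (WT) mice and 3 mice labelled as Mtg16 knockouts (Mtg16-/-). MTG16, encoded by Cbfa2t3, is a transcriptional co-repressor. Mice of both genotypes were 12-week-old males without treatment, and crypts were taken along the whole gut after 30 min in cold PBS with 2 mM EDTA. The labels describe the knockout as made with CRISPR, whereas the study's methods describe mice obtained from another investigator, and this difference was not resolved. The deletion is not described as limited to a cell type.

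Ribosome biogenesis starts with the transcription of the 47S precursor rRNA by RNA polymerase I. Small nucleolar ribonucleoproteins (snoRNPs) then modify this precursor while the small subunit processome and the 60S assembly factors fold and cut it around the ribosomal proteins. Dividing cells make many ribosomes, and in the intestine the work falls mainly to proliferating crypt cells. MYC binds the E box CACGTG, and these genes are often treated as MYC targets.

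Values are TPM (a measure of transcript abundance that accounts for transcript length and sums to the same total in each library), so levels can be set beside each other between genes, but the read depth behind them is unknown. Across the 12268 tested genes, Pearson's r between libraries ran from 0.931 to 0.980. The epithelial markers Epcam, Cdh1, Vil1, Krt8, Krt18, Krt19, Cdx1 and Cdx2 had TPM values between 137 and 3494 in the 6 libraries, and the 8 stromal markers lay between 0.04 and 13.9. The 10 immune markers reached higher values than the stromal ones, from 1.4 to 275. For the targeted gene Cbfa2t3, WT crypts gave TPM values of 3.67, 6.69 and 4.52, and crypts labelled Mtg16-/- gave 4.62, 6.43 and 3.23. Its level did not distinguish the genotypes (log2 fold change -0.06, standard error 0.27, limma adjusted p = 0.937), so the labels could not be checked by it and every direction below rests on them. Fewer cells of a type and less RNA per cell cannot be told apart in these bulk libraries.

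The promoters were read for the E box, because it is the element that MYC binds. RefSeq promoter sequences (GRCm38.p6, 250 bases before to 50 bases after the start site) were held for 49 of the 55 genes, and none was held for Rrp12, Tcof1, Npm1, Fbl, Bop1 or Rrs1. CACGTG, a palindrome that reads alike on both strands, was present in 10 of the 49 (20.4%), compared with 12.0% of 9533 tested genes and 8.09% of all 27025 genes with an entry. In the 250 bases before the start it was present in 4 (8.16%), compared with 10.0% of the tested genes. In the first 50 transcribed bases it was present in 6 (12.2%), compared with 1.97% of the tested genes. These 6 are shown because their E box lies in that short stretch, as 30 bases of the gene's strand with the E box in capitals.
Grwd1 (chr7:45830740-45830769, minus strand): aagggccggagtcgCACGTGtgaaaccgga
Ltv1 (chr10:13193092-13193121, minus strand): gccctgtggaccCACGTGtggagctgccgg
Pes1 (chr11:3963965-3963994, plus strand): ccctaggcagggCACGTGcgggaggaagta
Tsr1 (chr11:74898092-74898121, plus strand): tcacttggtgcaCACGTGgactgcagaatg
Utp20 (chr10:88826765-88826794, minus strand): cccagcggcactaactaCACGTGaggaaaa
Wdr43 (chr17:71616220-71616249, plus strand): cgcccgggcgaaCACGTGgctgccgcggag
The E box began at base 3 of Pes1, 18 of Wdr43, 25 of Tsr1, 29 of Ltv1, 35 of Grwd1 and 38 of Utp20, counted from the start site of the promoter entry. For Wdr43 and Grwd1 that site lies inside the gene as RefSeq places it, downstream of the gene's own 5' end, so their E box is not in the first 50 bases from that end. The other 4 genes were Utp18, Nop2, Imp4 and Rrn3, with the E box 20, 60 and 121 bases before the start in the first 3 of these and an E box at 48 and at 215 bases before it in Rrn3. A match of letters does not show binding. The median log2 fold change was 0.05 for the 10 genes with an E box and 0.01 for the 39 without one.

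No ribosome biogenesis gene passed the test between Mtg16-/- and WT crypts. In limma's moderated test on log2(TPM + 1), 0 of the 55 reached an adjusted p under 0.1, the threshold used here, and the smallest adjusted p was 0.296. Over all tested genes, 4 of 12268 (0.0326%) reached it, so this test made few calls anywhere. The study's own analysis of Mtg16-/- and WT intestine reported many more differentially expressed genes, so the small number of calls holds for this test. At an unadjusted p under 0.05 there was 1 gene, Polr1c, whereas 14.6% of all tested genes passed that limit. The values of both genotypes were fully apart for Polr1c alone of the 55, compared with 21.0% of all tested genes. The log2 fold change was positive in 31 genes and negative in 24, with a median of 0.01 (-0.03 over all tested genes), and ran from -0.38 for Rrp12 to 0.41 for Polr1c. The 95% interval of the difference stayed within 2-fold in either direction for all 55 genes and within 1.5-fold for 25 of them. Thus a difference of more than 2-fold lay outside each interval, while smaller differences were not resolved with 3 mice per genotype. The replicates are described as biological, and an exact permutation test of 3 mice against 3 cannot go below p = 0.1.

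**Figure D1:**
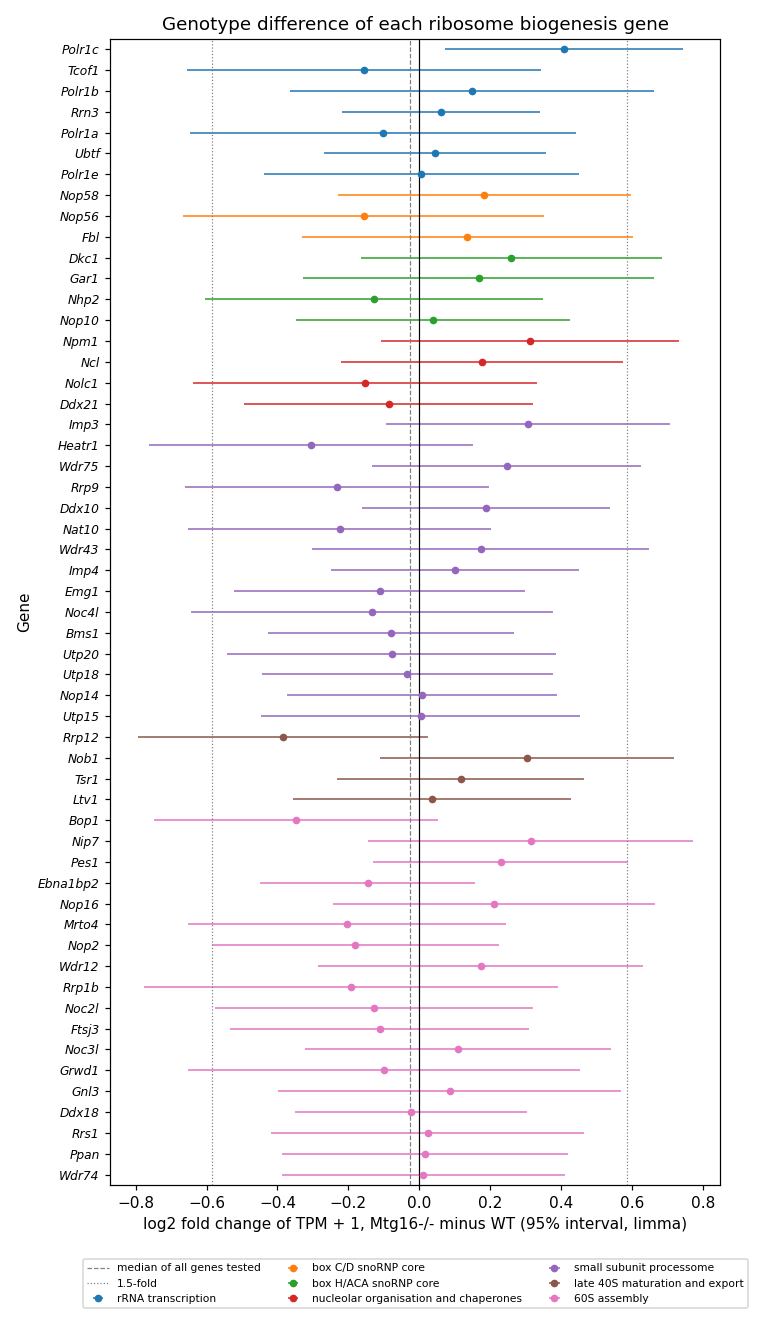
Log2 fold change of TPM + 1 in Mtg16-/- relative to WT crypts for each of the 55 genes (x axis), grouped by role (color); points are limma estimates and bars 95% intervals, with 3 libraries per genotype. The dashed line marks the median of all tested genes (-0.03) and the dotted lines 1.5-fold; all intervals but that of Polr1c include 0.

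The genes fall into 7 roles, and the RNA polymerase I machinery held the gene with the lowest p. Polr1c encodes a subunit shared by RNA polymerases I and III (chromosome 17 of GRCm38, from 46243920 to 46248045). Its TPM was 38.4, 42.1 and 52.1 in WT and 53.7, 59.2 and 63.2 in Mtg16-/-. All 3 Mtg16-/- libraries lay above all 3 WT libraries, but the log2 fold change of 0.41 (standard error 0.15, 95% interval 0.07 to 0.74) did not pass the adjustment (limma adjusted p = 0.296).

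The large catalytic subunits of RNA polymerase I overlapped between the genotypes. Polr1a, the largest subunit, had a TPM of 17.6, 26.5 and 26.2 in WT and of 18.4, 29.6 and 18.0 in Mtg16-/- (log2 fold change -0.10, standard error 0.24, limma adjusted p = 0.861). Polr1b, the second largest, had 20.0, 33.2 and 33.7 in WT and 27.4, 38.0 and 29.7 in Mtg16-/- (0.15, standard error 0.22, adjusted p = 0.770). In both genes the lowest library was replicate 1 of the WT group. Exons of Polr1a overlap an antisense gene, and whether the counting used strand is not given in the sources used here, so their reads cannot be told apart. The same holds for 14 of the 55 genes in all, each of which overlaps an exon on the opposite strand, and for none on the same strand.

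The regulators of rDNA transcription were as close. Ubtf, the factor that keeps rDNA in an active state, had a TPM of 63.6, 77.3 and 84.3 in WT and of 73.3, 81.1 and 76.6 in Mtg16-/- (log2 fold change 0.04, standard error 0.14). Tcof1, which encodes treacle, a nucleolar scaffold that recruits the polymerase, had 30.6, 51.6 and 47.5 in WT and 32.7, 45.4 and 36.2 in Mtg16-/- (-0.16, standard error 0.22). Rrn3, which carries the polymerase to the promoter, varied least of the 55 genes, with a highest value 1.19 times the lowest (TPM 27.9 to 33.2, log2 fold change 0.06). Polr1e, a further subunit, had the lowest level of all (TPM 4.91 to 7.87, log2 fold change 0.01).

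The snoRNP cores guide chemical modification of rRNA. Of the box C/D proteins, which act in 2'-O-methylation, the methyltransferase fibrillarin (Fbl) had a TPM of 131, 202 and 206 in WT and of 165, 199 and 220 in Mtg16-/- (log2 fold change 0.14, standard error 0.20). Nop56 had 121, 210 and 200 in WT and 134, 165 and 165 in Mtg16-/- (-0.16, standard error 0.22). Its partner Nop58 had 79.6, 105 and 99.0 in WT and 85.7, 111 and 128 in Mtg16-/- (0.18, standard error 0.18). Thus the 3 proteins of 1 particle did not share a sign, and each overlapped between genotypes (limma adjusted p from 0.636 to 0.770). Exons of Nop56 overlap those of Idh3b on the other strand.

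The box H/ACA proteins act in pseudouridylation. Dyskerin (Dkc1), the pseudouridine synthase, had a TPM of 31.9, 42.3 and 47.8 in WT and of 40.2, 51.5 and 54.3 in Mtg16-/- (log2 fold change 0.26, standard error 0.18, limma adjusted p = 0.521). Gar1 had 32.9, 49.4 and 46.3 in WT and 37.0, 48.7 and 59.5 in Mtg16-/- (0.17, standard error 0.21). Nhp2 (-0.13) and Nop10 (0.04) lay on either side of 0. Exons of Dkc1 overlap those of Mpp1 on the other strand.

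The nucleolar organisers and chaperones held the most abundant of the 55 genes, with positive values for its 2 leading members and negative values for the other two. Nucleophosmin (Npm1), a histone and ribosome chaperone of the granular nucleolus, was the most abundant of the 55 and ranked 251 among the tested genes. Its TPM was 437, 568 and 587 in WT and 556, 652 and 768 in Mtg16-/- (log2 fold change 0.31, standard error 0.18, 95% interval -0.11 to 0.73, limma adjusted p = 0.445). Nucleolin (Ncl), which binds nascent rRNA, had 129, 173 and 176 in WT and 149, 195 and 196 in Mtg16-/- (0.18, standard error 0.17, adjusted p = 0.634). For both genes the replicate 1 library of each genotype was the lowest of its group. The scaffold Nolc1 (-0.15) and the helicase Ddx21 (-0.09) were negative.

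**Figure D2:**
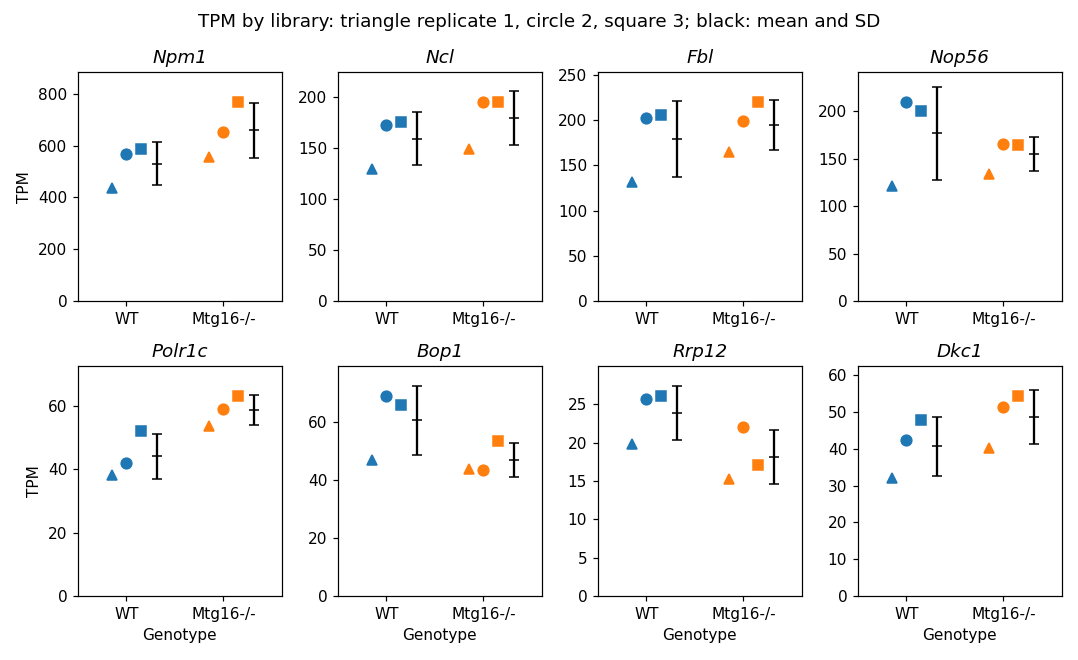
TPM (y axis, from 0) of 8 ribosome biogenesis genes by genotype (x axis), with the 3 libraries of each genotype as a triangle (replicate 1), a circle (replicate 2) and a square (replicate 3), and the mean and SD in black. The triangle is the lowest WT library in each of the 8 genes, at 437 against 568 and 587 for Npm1, and only Polr1c shows no overlap between the genotypes.

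The small subunit processome is the large particle that forms on the 5' part of the precursor rRNA. Its 15 genes had 7 positive and 8 negative log2 fold changes (median -0.03), from -0.31 to 0.31. Imp3, which holds the U3 snoRNA to the precursor, had a TPM of 44.4, 66.3 and 61.8 in WT and of 65.1, 67.2 and 79.6 in Mtg16-/- (log2 fold change 0.31, standard error 0.17, limma adjusted p = 0.431). Heatr1, needed for rRNA transcription and early processing, had 21.7, 30.5 and 32.6 in WT and 19.7, 27.8 and 20.4 in Mtg16-/- (-0.31, standard error 0.20, adjusted p = 0.485). The remaining positive values were those of Wdr75 (0.25), Ddx10 (0.19), Wdr43 (0.17), Imp4 (0.10), Nop14 (0.01) and Utp15 (0.00). The remaining negative values were those of Rrp9 (-0.23), Nat10 (-0.22), Noc4l (-0.13), Emg1 (-0.11), Bms1 (-0.08), Utp20 (-0.08) and Utp18 (-0.03).

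Among the 4 genes of late 40S maturation and export, Rrp12, an export factor, had the lowest log2 fold change of the 55. Its TPM was 19.8, 25.7 and 26.1 in WT and 15.2, 22.1 and 17.1 in Mtg16-/- (-0.38, standard error 0.18, 95% interval -0.79 to 0.03, limma adjusted p = 0.364). The groups overlapped through WT replicate 1 and Mtg16-/- replicate 2. Nob1, the endonuclease that makes the final cut of 18S rRNA, had 23.8, 34.0 and 35.5 in WT and 33.0, 41.7 and 40.1 in Mtg16-/- (0.30, standard error 0.18, adjusted p = 0.447). Tsr1 (0.12) and Ltv1 (0.04) completed the group.

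The 18 genes of 60S assembly were evenly split, with 9 positive and 9 negative log2 fold changes and a median of -0.01. Bop1, which with Pes1 and Wdr12 forms the PeBoW complex, had a TPM of 47.1, 69.1 and 66.0 in WT and of 43.9, 43.6 and 53.7 in Mtg16-/- (-0.35, standard error 0.17, 95% interval -0.75 to 0.05, limma adjusted p = 0.391). Its partners had positive values (Pes1 0.23, adjusted p = 0.505; Wdr12 0.17, adjusted p = 0.696), so the 3 proteins of this complex did not share a sign. Exons of Bop1 overlap those of Mroh1 on the other strand. Nip7 had a TPM of 11.2, 18.4 and 14.3 in WT and of 15.2, 19.9 and 19.5 in Mtg16-/- (0.31, standard error 0.20, adjusted p = 0.478). The other 14 genes ran from -0.20 for Mrto4 and -0.19 for Rrp1b to 0.21 for Nop16, through Nop2 (-0.18), Ebna1bp2 (-0.15), Noc2l (-0.13), Ftsj3 (-0.11), Grwd1 (-0.10), Ddx18 (-0.02), Wdr74 (0.01), Ppan (0.01), Rrs1 (0.02), Gnl3 (0.09) and Noc3l (0.11).

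The genes varied together between libraries rather than between genotypes. Differences between mice and between preparations cannot be told apart here. WT replicate 1 was the lowest of the 6 libraries for 46 of the 55 genes (83.6%), compared with 26.4% of all tested genes, and the lowest WT library for 54. The exception was Wdr12. Mtg16-/- replicate 1 was the lowest library of its genotype for 50 of the 55. The 2 replicate 1 libraries were the lowest 2 of the 6 for 43 of the 55 genes (78.2%), compared with 1526 of 12268 tested genes (12.4%). In WT, the value of replicate 1 was a median of 0.693 times the mean of the other 2 libraries (0.545 for Rrp1b to 0.990 for Wdr12) and was below it for all 55 genes. In Mtg16-/-, the same ratio had a median of 0.812 (0.612 to 0.931) and was again below 1 for all 55. Over all tested genes these ratios had medians of 1.02 and 0.989. The summed TPM of the 55 genes was 2685, 3827 and 3727 in WT and 3046, 3679 and 3889 in Mtg16-/-. Both replicate 1 libraries thus had the lowest sums, and the other 4 lay between 3679 and 3889 whatever the genotype.

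**Figure D3:**
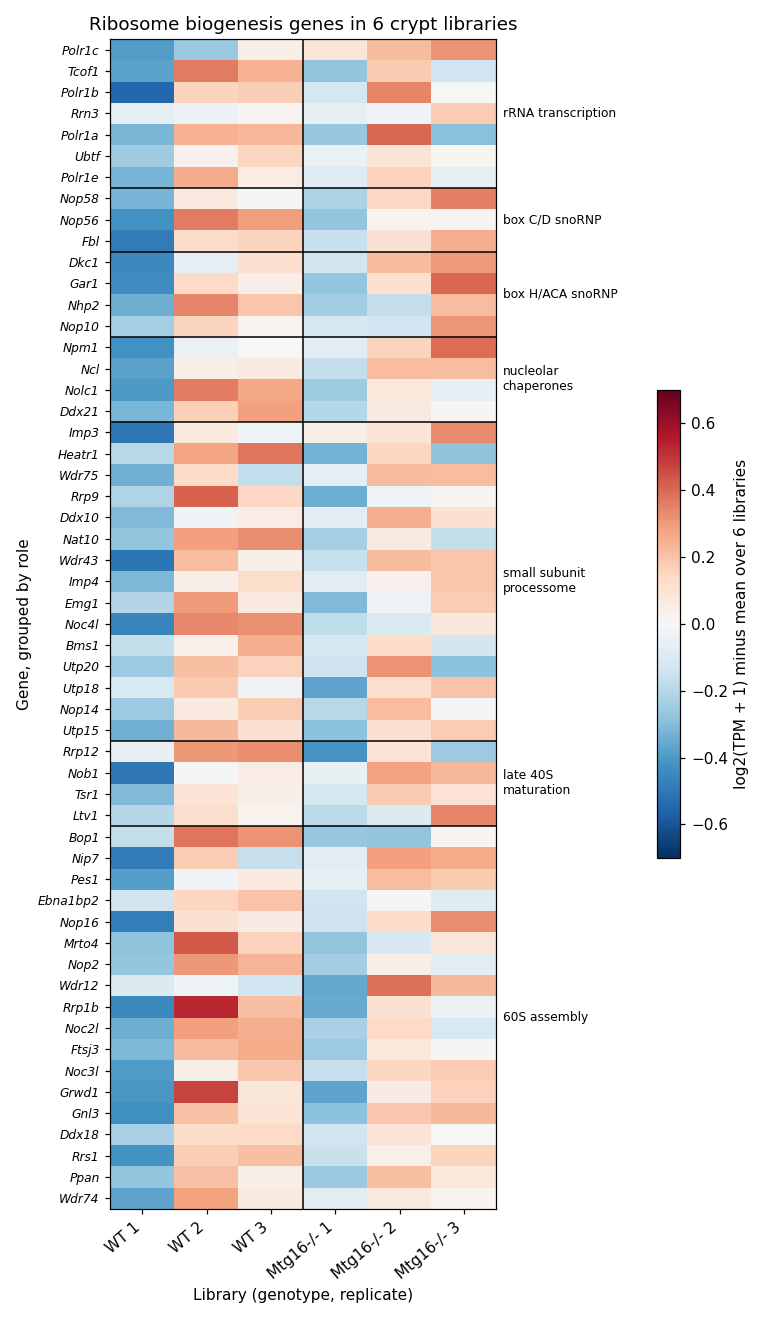
Deviation of log2(TPM + 1) from the mean over the 6 libraries (color) for each of the 55 genes (rows, grouped by role) in each library (columns). The columns of replicate 1 are blue (low) in both genotypes for nearly every gene: WT replicate 1 is the lowest of the 6 for 46 genes, and both replicate 1 libraries are the lowest 2 for 43.

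Other gene lists moved with these libraries. A library's level of a list is how far log2(TPM + 1) of its genes lay, on average, from each gene's mean of the 6 libraries. For the 55 genes it was -0.33, 0.18 and 0.13 in WT and -0.19, 0.11 and 0.10 in Mtg16-/-. For 17 proliferation genes it was -0.40, 0.12 and 0.10 in WT and -0.14, 0.12 and 0.20 in Mtg16-/-, and the replicate 1 libraries were the lowest 2 for 13 of them. Mki67, the most used marker of dividing cells, had a TPM of 107, 139 and 161 in WT and of 116, 161 and 90.3 in Mtg16-/-. Thus most proliferation genes followed the same order of libraries, although Mki67 did not.

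Markers of absorptive enterocytes, the differentiated cells of the villus, ran the other way within each genotype. The level of their 13 genes was 1.52, -0.02 and 0.31 in WT and 0.03, -0.88 and -0.96 in Mtg16-/-, and their summed TPM ranged from 13587 to 38657 in WT and from 6953 to 13945 in Mtg16-/-, with none of the 13 at 0. The highest enterocyte level thus belonged to WT replicate 1, and Mtg16-/- replicate 1 had the highest of its genotype. The 10 immune markers also were highest in WT replicate 1, with levels of 0.70, -0.05 and 0.06 in WT and 0.30, -0.21 and -0.80 in Mtg16-/- (summed TPM 178 to 481 in WT and 98.7 to 256 in Mtg16-/-, none at 0). The 10 crypt stem cell markers had levels of -0.64, -0.14 and -0.08 in WT and 0.13, 0.59 and 0.12 in Mtg16-/-, with summed TPM of 893 to 1534 and of 1669 to 2215. Paneth cell markers, of which WT replicate 1 was the lowest library for 8 of 8, had levels of -1.05, 0.19 and -0.40 in WT and 0.61, 0.35 and 0.30 in Mtg16-/-. The 7 goblet cell markers had 0.43, 0.31 and -0.05 in WT and 0.13, -0.28 and -0.54 in Mtg16-/-. The 11 genes of RNA and tissue stress had 0.42, -0.10 and 0.38 in WT and -0.05, -0.21 and -0.45 in Mtg16-/-. Of these 11, 2 had a positive and 9 a negative log2 fold change (median -0.47). The list held 1 called gene, the cold-inducible RNA-binding protein gene Cirbp, which was 1 of the 2 positive ones (log2 fold change 1.22, standard error 0.14, limma adjusted p = 0.0894). The part of these cell types and of stress in the level of the ribosome biogenesis genes was not tested. No gene of the enterocyte, immune, stem cell or proliferation list passed an adjusted p under 0.1 between genotypes. Over all tested genes, only 4 of 12268 (0.0326%) did. All 13 enterocyte genes had negative log2 fold changes (median -1.20), and all 10 stem cell markers had positive ones (median 0.62). At an unadjusted p under 0.05 in limma there were 9 and 7 of these, compared with 14.6% of all tested genes. The immune and proliferation lists held 0 at that limit.

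**Figure D4:**
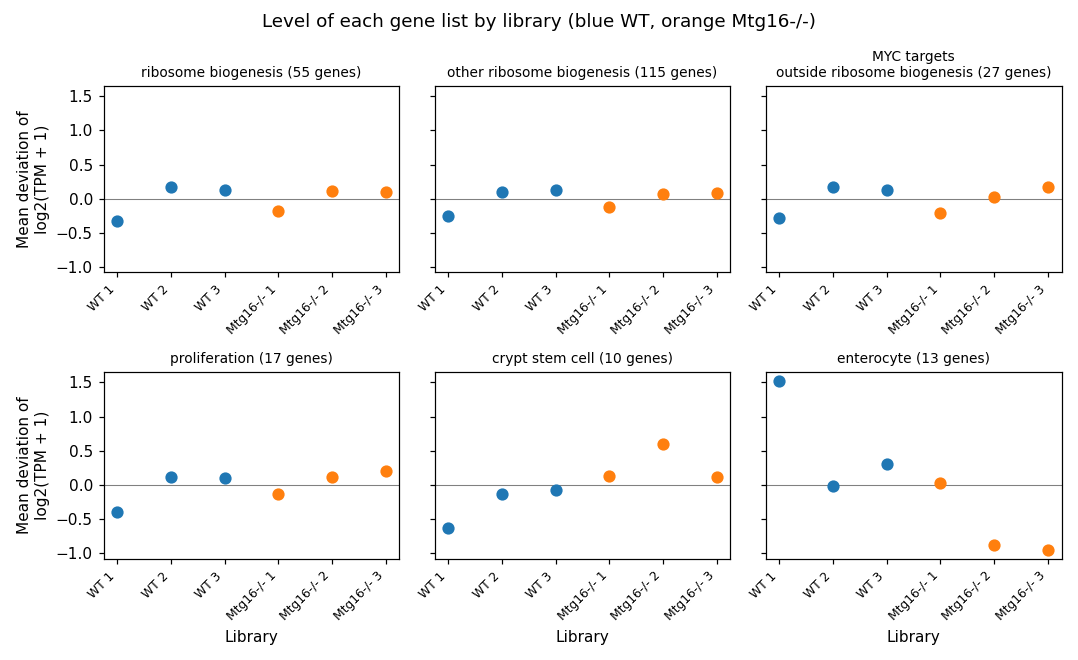
Level of 6 gene lists (y axis, mean deviation of log2(TPM + 1) from the mean over the libraries) in each of the 6 libraries (x axis; WT blue, Mtg16-/- orange). The ribosome biogenesis and proliferation lists are lowest in WT replicate 1 (-0.33 and -0.40), the library with the highest enterocyte level (1.52).

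Leaving out WT replicate 1, a choice made after seeing these values although the alternative itself was planned, turned the balance of directions. This library was the lowest WT library for 54 of the 55 genes, so removing it lowers nearly every log2 fold change. Mtg16-/- replicate 1, the lowest of its genotype for 50, stayed in. The direction of the counts in this setting thus depends on the library left out, and its relation to genotype was not tested. Against the other 2 WT libraries, 41 of the 55 genes had a negative log2 fold change in Mtg16-/- and 14 a positive one, with a median of -0.12 (-0.03 over all tested genes). There were 13 genes at an unadjusted p under 0.05, all lower in Mtg16-/-, whereas 6.13% of 12216 tested genes were lower at that limit. In 19 genes all Mtg16-/- libraries lay below both remaining WT libraries (16.9% of all tested genes), and in 1 they lay above. No gene passed the adjustment (0 of 55 in limma, smallest adjusted p = 0.297), so no ribosome biogenesis gene was called lower in this setting either. The lowest values were those of Bop1 (-0.52, standard error 0.14), Rrp12 (-0.51, standard error 0.17), Heatr1 (-0.48, standard error 0.17) and Rrp1b (-0.46, standard error 0.18). The other 9 of the 13 were Nat10, Nop56, Rrp9, Mrto4, Noc4l, Nolc1, Tcof1, Nop2 and Noc2l, from -0.42 to -0.33. Without both replicate 1 libraries, the split was 25 positive to 30 negative (median -0.02). At an unadjusted p under 0.05 in limma, 6 genes were then lower and 2 higher in Mtg16-/- (16.1% of all tested genes in either direction). Leaving out Mtg16-/- replicate 2 or replicate 3 gave 26 positive and 29 negative genes each time (medians -0.05 and -0.01). The split was 39 to 16 without WT replicate 2, 34 to 21 without WT replicate 3 and 36 to 19 without Mtg16-/- replicate 1 (medians 0.11, 0.06 and 0.10), so the sign of the median was set by single libraries.

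The rest of the pathway held no called gene either. Of 115 further ribosome biogenesis genes, 64 had a positive and 51 a negative log2 fold change (median 0.02), and 0 passed an adjusted p under 0.1 in limma. An unadjusted p under 0.05 was reached by 4, all higher in Mtg16-/-, compared with 14.6% of all tested genes. Nsa2, a 60S assembly factor, had a TPM of 79.5, 79.2 and 91.5 in WT and of 109, 115 and 131 in Mtg16-/- (0.50, standard error 0.13, limma adjusted p = 0.247). Nop53, which brings the RNA exosome to the pre-60S particle, had 114, 154 and 167 in WT and 197, 206 and 199 in Mtg16-/- (0.49, standard error 0.16, adjusted p = 0.281). Twistnb, an RNA polymerase I subunit, had 11.1, 11.0 and 14.1 in WT and 14.5, 17.9 and 18.7 in Mtg16-/- (0.47, standard error 0.16, adjusted p = 0.286). In these 3 genes every Mtg16-/- library lay above every WT library, as in Xrn2, the 4th, a 5' to 3' exonuclease (0.29). In all, the genotypes did not overlap for 9 of the 115 genes, 4 higher and 5 lower in Mtg16-/-, compared with 21.0% of all tested genes. The 5 lower were Efl1 (-0.26), Taf1c (-0.25), Eif6 (-0.24), Ddx24 (-0.23) and Senp3 (-0.21).

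Of the negative log2 fold changes in this list, those with the smallest p belonged to Nol10, Bud23 and Eif6. Nol10 had a TPM of 13.4, 19.1 and 17.1 in WT and of 9.59, 13.6 and 13.2 in Mtg16-/- (log2 fold change -0.41, limma adjusted p = 0.358). Bud23, the methyltransferase of 18S rRNA, had 42.4, 57.7 and 49.5 in WT and 40.2, 35.7 and 43.3 in Mtg16-/- (-0.31, adjusted p = 0.371). Eif6, the factor that keeps 60S subunits from joining too early, had 268, 255 and 238 in WT and 224, 202 and 217 in Mtg16-/-, with no overlap (-0.24, adjusted p = 0.381). The replicate 1 libraries were the lowest 2 for 68 of these 115 genes (59.1%). Without WT replicate 1, the lowest library for 73 of the 115, the balance of this list also turned, to 33 positive and 82 negative log2 fold changes (median -0.11). At an unadjusted p under 0.05 in limma, 10 genes were lower, compared with 6.13% of all tested genes. A further 3 were higher, and 11.4% of all tested genes passed that limit in either direction. No gene of the list was called.

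Myc itself had a larger log2 fold change than any of the 55 genes. Myc had a TPM of 32.6, 44.8 and 57.2 in WT and of 73.9, 105 and 87.2 in Mtg16-/-. All Mtg16-/- libraries lay above all WT libraries, with a log2 fold change of 0.99 (standard error 0.22), but the difference did not pass the adjustment (limma adjusted p = 0.224). Its partner Max had 146, 89.6 and 103 in WT and 98.8, 88.5 and 78.4 in Mtg16-/- (-0.32, adjusted p = 0.448). Of the 11 genes of the MYC network, 5 had an unadjusted p under 0.05 (Myc, Mycl, Mxd3 and Mycn higher, Mlx lower) and 0 an adjusted p under 0.1 in limma. The shares over all tested genes were 14.6% and 0.0326%.

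MYC targets outside ribosome biogenesis were also split by direction. Of 27 genes, 15 had a positive and 12 a negative log2 fold change (median 0.03), and 0 passed the adjustment in limma. At an unadjusted p under 0.05 there were 4, near the share of 14.6% over all tested genes. Of these 4, Paics (0.60) and Impdh2 (0.50), enzymes of purine synthesis, were positive, and Ldha (-0.46), lactate dehydrogenase, and Mthfd2 (-0.50), a mitochondrial folate enzyme, were negative. The replicate 1 libraries were the lowest 2 for 19 of the 27 targets and for 0 of the 11 network genes. For Myc, replicate 1 was the lowest library within each genotype, but all Mtg16-/- values exceeded the WT values.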

How the data were processed

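Total RNA of mouse intestinal crypts (200 ng per library) was depleted of ribosomal RNA and amplified over 14 PCR cycles. The authors deposited TPM values per gene symbol, made with RSEM 1.3.0. The submitters' processing notes also list cutadapt 1.9.1, STAR 2.5.2a, DESeq2 1.12.3 and the build mm10. TPM keeps no read number, so depth is unknown and no count test was run. Values were analysed as log2(TPM + 1), which understates changes of low genes. Genes averaging at least 1 TPM over the libraries (12268) were tested with limma 3.58.1 (R 4.3.3; lmFit and eBayes with an intensity trend, no covariates) and the Benjamini-Hochberg adjustment over all of them, and called at an adjusted p under 0.1. The calculation was tested on simulated data with independent noise and changes larger than those of the 55 genes. The simulation held no shift shared by the genes of a library, so it does not cover that case. The 55 genes and the other lists were chosen with earlier results of these data known, so no list was tested. Genes described with all 6 values were, in each role, the 2 with the smallest p, and Ncl, Npm1, Fbl, Polr1a, Polr1b, Ubtf, Bop1 and Dkc1; among other genes Myc, Max, Mki67, Cbfa2t3 and, in the further ribosome biogenesis list, the 3 with the smallest p in each direction. Other genes named with values were chosen after the values were seen. Positions and promoters come from RefSeq GRCm38.p6 and exon overlaps from GENCODE vM21. Alternatives were another pseudocount, filter, scaling, moderation, threshold, a replicate block and each library left out.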

Additional observations from a re-analysis of the deposited data

How the results depend on the processing

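The number of the 55 genes called stayed at 0 in 16 of 17 alternatives. Of these 16, the stricter limit of an adjusted p under 0.05 could give no other count. The median log2 fold change of the 55 genes ran from -0.12 (without WT replicate 1) to 0.11 (without WT replicate 2). Over all tested genes, where 4 were called, the count was 0 without a filter on low values, 15 at a mean TPM of at least 5, 1 after median-ratio rescaling, 1 after quantile normalization, 11 after rescaling without defensin, mitochondrial and small noncoding RNAs, 0 without the intensity trend, 20 with robust moderation, 0 at an adjusted p under 0.05 and 0 to 40 with 1 library left out. Leaving out 1 library gave 0 to 13 of the 55 genes at an unadjusted p under 0.05 and 1 to 20 without overlap. The 13 and the 20 came without WT replicate 1 (31.5% of all tested genes did not overlap there), and 14 did not overlap without Mtg16-/- replicate 1 (38.8% of all tested). Without both replicate 1 libraries, an alternative added after seeing the data, 205 genes were called over all, 0 of the 55 and 1 of the MYC lists (Myc, adjusted p = 0.0866), 8 of the 55 had an unadjusted p under 0.05 (16.1% of all tested), and 33 of the 55 did not overlap (49.7% of all tested). Of 27 named genes, 21 kept their sign in all 17 alternatives. The sign could not turn with another filter, moderation or threshold, or with a replicate block, which leave each log2 fold change as it was. The sign turned for Gar1 (-0.00809 to 0.34 with 1 library left out), Fbl (-0.0747 to 0.25), Polr1b (-0.0891 to 0.27), Polr1a (-0.33 to 0.0173), Mki67 (-0.39 to 0.0276) and Ubtf (-0.0681 to 0.13, and -0.0338 without both replicate 1 libraries); the cause was not tested. The groups share replicate numbers, but same-numbered libraries did not deviate together in every pair (r = 0.429, 0.0753 and 0.237 across genes), so the numbers were not taken to pair the mice. As a hint from the data, WT replicate 2 correlated better with Mtg16-/- replicate 3 than with its own number, and the other 5 libraries best with their own. With the replicate block, 1201 genes were called over all, 1 of the 55 (Polr1c, adjusted p = 0.0867), 2 of the further ribosome biogenesis genes (Nsa2 and Nop53, adjusted p = 0.0387 and 0.0789) and 8 of the MYC lists (among them Myc, adjusted p = 0.0148), and 6 of the 55 had an unadjusted p under 0.05 (22.6% of all tested).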

Other observations

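The entry for the precursor of the ribosomal RNA, Rn45s, was chosen after its values were seen. Mature rRNA is cut from this precursor, so reads of rRNA left after depletion may count toward Rn45s. Its TPM was 43706.5, 68304.7 and 64016.6 in WT and 41578.3, 62817.8 and 39719.1 in Mtg16-/- (log2 fold change -0.29, standard error 0.44, limma adjusted p = 0.772), the highest level of all tested genes although the libraries were depleted of ribosomal RNA. Within each genotype replicate 2 was the highest library. The RNA components of RNase MRP (Rmrp), which cuts the precursor rRNA, and of RNase P (Rpph1) followed it in TPM. Their genes are short (275 and 325 bases) and TPM divides by length, so their rank in abundance is uncertain. Rmrp had 17355.8, 23864.6 and 18128.9 in WT and 17311.4, 22219.3 and 26471.7 in Mtg16-/- (0.15, standard error 0.34), and Rpph1 had 18523.2, 33463.2 and 34000.5 in WT and 27139, 38525.7 and 25236.8 in Mtg16-/- (0.11, standard error 0.41). For these 3 RNAs the genotypes overlapped.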
